A study of Mus musculus with 24 samples.

Results

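Brain expression was compared between mice kept on mouse pellets, the food on which they had been raised, and mice given cooked meals from a human cafeteria. The comparison takes 12 of the 24 brain arrays of the series, 6 titled as pellet diet and 6 titled as human cafeteria diet, and the other 12 arrays, from mice on a chimpanzee and a fast food diet, entered only the estimate of the spread and of batch. All animals were female NMR-1 mice, an outbred laboratory stock, 8 weeks old at the start and on their food for 2 weeks, with no other treatment, and littermates were spread over the diet groups. RNA came from the right cerebral hemisphere of 1 mouse per array and was processed in 2 labelled batches, each with 3 pellet and 3 cafeteria mice. The values are log2 expression levels from Affymetrix mouse arrays, on which a probe set is a group of short probes read together, and 13839 features were tested, of which 11645 are genes and 2194 are probe sets with no gene listed. All 16 markers of neurons lay above the median level of all features, 6.19, from Elavl4 with a mean of 7.46 to Snap25 with 11.56. This is only a coarse look at the label of brain, with no other tissue beside it. Levels of different genes on an array are not comparable, so every value below is set only against values of the same gene.

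Among the genes with the smallest unadjusted p-values were 4 of the circadian clock, which is therefore described first. In the clock of mammalian cells Clock and Arntl form an activator that binds short DNA elements called E-boxes and switches on the Per and Cry genes, whose proteins return to the nucleus and hold the activator back. The same activator drives Dbp and Ciart, and Dbp passes the rhythm on to other genes, while Nr1d1 and its relatives repress Arntl, so that Arntl cycles out of phase with Per2 and Dbp. Clock genes cycle in most regions of the brain, and feeding is one of the signals that can set them. Glucocorticoids, hormones of the adrenal gland that follow the same daily rhythm, act through a receptor that switches on genes such as Tsc22d3, Sgk1 and Fkbp5. The hour at which each mouse was killed is not given in the labels or in the methods of the study. Its part in the differences of these genes was not tested.

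A pair of arrays stood apart from the others, and each carried transcripts of the pituitary gland. Cafeteria batch 1 replicate 1 had a log2 level of 11.65 for Gh, growth hormone, of 11.28 for Prl, prolactin, and of 10.47 for Pomc, the precursor of corticotropin, all products of that gland. Pellet batch 2 replicate 1 had 7.69, 7.57 and 7.11 for the same genes, and the other 10 arrays lay between 3.80 and 5.00 for Gh, between 3.49 and 4.10 for Prl and between 4.78 and 6.25 for Pomc. Pellet batch 2 replicate 1 also had a median correlation to the other 23 arrays of 0.820, where the other pellet arrays had 0.968 to 0.989 and the cafeteria arrays 0.972 to 0.988, and an SD of its log2 values of 1.58, the lowest of the 12. The signal of 18S ribosomal RNA differed with batch and in opposite directions in these diets, at 4.96 to 5.51 in batch 1 and 5.92 to 6.42 in batch 2 on pellets, and at 5.94 to 6.13 and 5.04 to 5.08 on the cafeteria diet. On the chimpanzee and fast food diets it was also higher in batch 1, at 5.87 to 6.58, than in batch 2, at 4.88 to 5.15, so that the pellet arrays ran against the 3 other diets. The same was seen over all features, where the batch 2 minus batch 1 difference of the pellet diet correlated at −0.79 with that of the cafeteria diet, −0.73 with the chimpanzee and −0.75 with the fast food diet, while that of the cafeteria diet correlated at 0.82 and 0.89 with the latter diets (Pearson's r across features, which are not independent). Whether the batch labels of the pellet arrays are exchanged was not tested and cannot be told from the labels. If they were, each value within a labelled batch would set mice of different batches against each other. With the pellet labels exchanged the pellet minus cafeteria differences of the 33 named genes were the same to 2 decimals, since each batch holds 3 mice of each diet, but their errors changed, and 0 features passed with 2403 at an unadjusted p under 0.05. Between the diets themselves 18S differed by less than the spread, with 5.72 ± 0.603 on pellets and 5.55 ± 0.534 on the cafeteria diet (SD, n = 6; exact permutation test over 924 splits, two-sided, p = 0.613). That spread holds the gap between the batches, and the permutation test did not take batch into account. Within each labelled batch the 18S ranges of the diets did not overlap. The 3′ minus 5′ signal of Actb and Gapdh, which degradation of RNA raises, was 0.262 ± 0.0743 on pellets and 0.257 ± 0.054 on the cafeteria diet (exact permutation test, p = 0.883). By array it was highest in pellet batch 2 replicate 3, at 0.388 with a correlation of 0.968, and was 0.24 in pellet batch 2 replicate 1. Differences of the named genes are therefore given with batch as a term and within each labelled batch. Where they moved most, they are also given without 2 arrays, pellet batch 2 replicate 1 and cafeteria batch 1 replicate 1. Pellet batch 2 replicate 3 stays in all of these values. The methods of the study leave out 1 pellet array for degraded RNA, which neither text nor labels name.

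**Figure D1:**
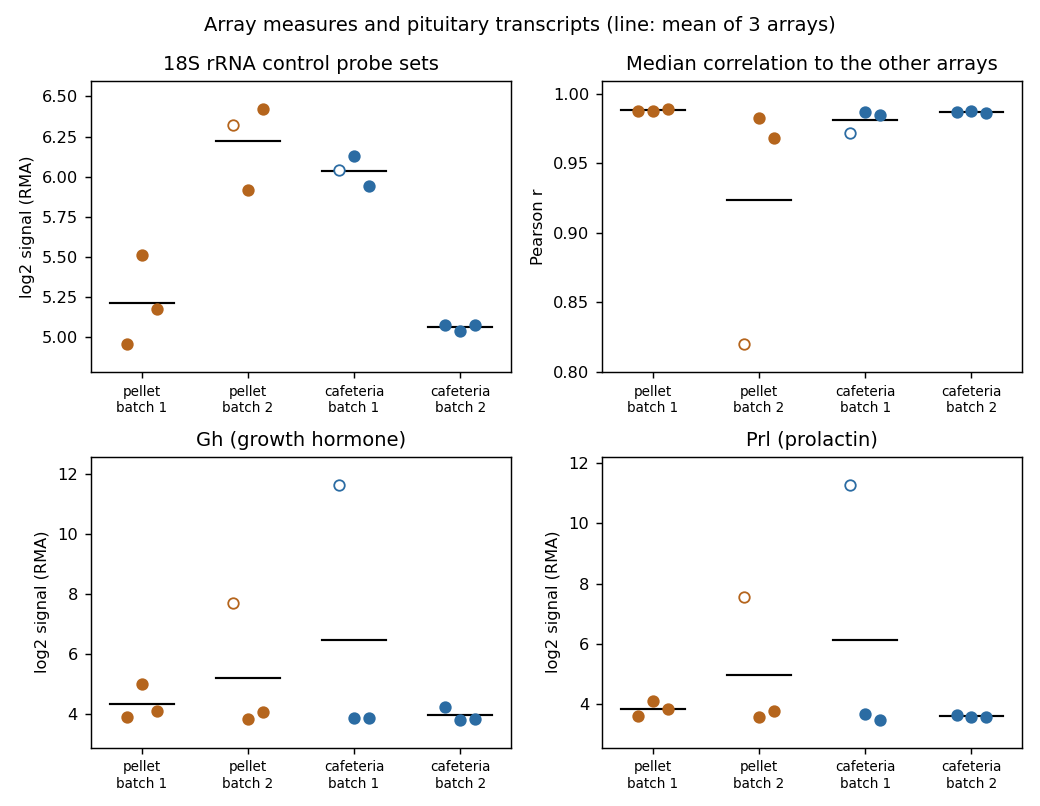
Values per array of 4 measures (log2 signal of 18S ribosomal RNA, Gh and Prl, and median Pearson correlation to the other 23 arrays) in each of the 12 arrays, with pellet arrays in brown, cafeteria arrays in blue, open circles for pellet batch 2 replicate 1 and cafeteria batch 1 replicate 1, and a line at the mean of 3. The 18S signal is higher in batch 2 on pellets and in batch 1 on the cafeteria diet, and Gh and Prl are high in the 2 open circles.

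No feature passed at an adjusted p under 0.05 with batch as a term. limma called 0 of 13839 (0%), with a smallest adjusted p of 0.593, and 757 features (5.47%) had an unadjusted p under 0.05, of which 595 (4.3% of all features) were lower on pellets and 162 (1.17%) higher. This count depended on how arrays were weighed, since weights estimated for each array gave 1998 passing features, 1685 of them higher on pellets, in the fit of diet and batch and 77, 76 of them lower, in the model of diet by batch cells. The 12 arrays as a whole leaned the same way, since 68.8% of all features had a log2 difference below 0 and their median was −0.12, which became −0.04 without the 2 arrays, −0.01 after quantile normalization of the deposited values and 0.09 with array weights. Within labelled batch 1 the median of all features was 0.14, with 29.5% below 0, and within labelled batch 2 it was −0.39, with 72.6% below 0. Differences below are pellet minus cafeteria on the log2 scale, and a gene or list is best read against the median of all features in the same contrast. In 819 features (5.92%) both pellet batch means lay below both cafeteria batch means, and in 664 (4.8%) above them. In 17 features (0.123%), 8 higher and 9 lower on pellets, the 6 pellet arrays did not overlap with the 6 cafeteria arrays. Nearly all of the smallest p-values lay in features with ordered batch means, as 94 of the 96 features with an unadjusted p under 0.01 had such an order, 25 of them higher and 69 lower on pellets. This follows in part from the fit, in which batch differences that run opposite ways in the diets add to the error. Genes are described below by the rule of largest difference among these 94 features, and by list.

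Per2, one of the repressors at the centre of the clock, had the most marked difference of the clock genes. Its log2 level was 4.33 at the lowest, 5.24 at the median and 5.56 at the highest array on pellets, and 5.50, 5.85 and 5.98 on the cafeteria diet. Of the 6 pellet arrays 5 lay below every cafeteria array, and the lowest cafeteria array was batch 1 replicate 1. Pellet batch 2 replicates 1 and 3 were lowest, at 4.33 and 4.35, and the other pellet arrays lay between 5.16 and 5.56. Replicate 3, which had the highest 3′ minus 5′ signal, stays in the values without the 2 arrays. The means were 5.01 ± 0.54 and 5.81 ± 0.16 (SD, n = 6), a difference of −0.80 (SE 0.18), with an unadjusted p of 0.000147 and an adjusted p of 0.593 in limma. Without the 2 arrays the difference was −0.73 (SE 0.16), and it was −0.38 within batch 1 and −1.22 within batch 2, so that both batches leaned the same way by amounts that differed (adjusted p = 0.0148 for the difference between batches, and 0.112 without the 2 arrays). On the other foods Per2 was higher still, at 6.48 ± 0.15 on the chimpanzee and 6.11 ± 0.21 on the fast food diet.

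Cry1, the partner of the Per proteins in repression, was lower on pellets by a similar amount. It lay at 3.95, 4.54 and 4.80 (lowest, median and highest array) on pellets and at 4.77, 5.05 and 5.39 on the cafeteria diet, with 5 of 6 pellet arrays below all cafeteria arrays. The difference was −0.56 (SE 0.13; unadjusted p = 0.000325), or −0.50 (SE 0.11) without the 2 arrays, and −0.28 and −0.83 within batches 1 and 2. Ciart, a repressor that binds the Clock and Arntl complex, lay at 4.57, 5.44 and 5.56 on pellets and at 5.54, 5.88 and 6.10 on the cafeteria diet. Its groups overlapped at the edge, with 4 of 6 pellet arrays below every cafeteria array, and the difference was −0.53 (SE 0.16; unadjusted p = 0.00263), −0.31 and −0.75 within the batches and −0.44 without the 2 arrays.

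Dbp, an output factor of the clock, was the one clock gene whose groups did not overlap. All 6 pellet arrays, from 7.93 to 8.91 with a median of 8.72, lay below all 6 cafeteria arrays, from 8.96 to 9.34 with a median of 9.24. The difference was −0.57 (SE 0.17; unadjusted p = 0.0025), −0.38 within batch 1 and −0.75 within batch 2, and −0.45 (SE 0.15) without the 2 arrays. A second probe set of Dbp gave −0.36 (unadjusted p = 0.00674). For Per2 one further probe set gave −0.24 and another 0.09, so that its probe sets did not all run the same way.

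Arntl, which cycles out of phase with these genes, lay on the other side. It was at 6.49, 6.69 and 6.81 on pellets and at 6.21, 6.43 and 6.72 on the cafeteria diet, ranges that overlapped. The difference was 0.21 (SE 0.10; unadjusted p = 0.0493), 0.40 within batch 1 and 0.01 within batch 2, and 0.26 (SE 0.11) without the 2 arrays. Its other probe set, whose mean level was too low for the filter, gave 0.29 (unadjusted p = 0.00667). Arntl was also the only one of the 19 measured clock genes that was higher at an unadjusted p under 0.05.

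Of the 9 measured genes of the repressor limb 8 were lower on pellets, with a median of −0.50, −0.09 within batch 1 and −0.83 within batch 2, and 4 of them (Per2, Per3, Cry1 and Ciart) had an unadjusted p under 0.05, where 4.3% of all features did so in that direction. Without the 2 arrays 8 of 9 were again lower, with a median of −0.29, and 3 had such a p, against 2.64% of all features. Of all features 68.8% were lower with all arrays, and 8688 of 13839 without the 2. Weights estimated for each array left 5 of 9 lower, with a median of −0.06, and quantile normalization left 7 of 9, with −0.35. Per3 showed how far one batch could carry a gene: its difference was −0.50 (SE 0.21), but 0.14 within batch 1 and −1.15 within batch 2. The other probe sets of Per3 above the filter gave −0.04, −0.07, −0.1, −0.34 and 0.08, all smaller in size than the one used. Nr1d2, a repressor of Arntl, had −0.52 (SE 0.27) with 0.30 and −1.33 in the batches, and Bhlhe40 −0.49 (SE 0.26) with 0.12 and −1.10. Without the 2 arrays Per3, Nr1d2 and Bhlhe40 had −0.29, −0.32 and −0.20. Cry2 was at −0.26, Per1 at −0.12 and Nr1d1 at 0.05. Of the 10 genes of the activator limb and output factors 8 were lower, with a median of −0.18, and Dbp and Arntl were those with an unadjusted p under 0.05. This count and median lay near those of all features, 68.8% lower and −0.12. Hlf, a relative of Dbp, had −0.36 (SE 0.18) and Tef −0.23 (SE 0.18), and Clock itself −0.27 (SE 0.18), each with a difference near 0 or above it within batch 1, of −0.03, 0.31 and 0.11.

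**Figure D2:**
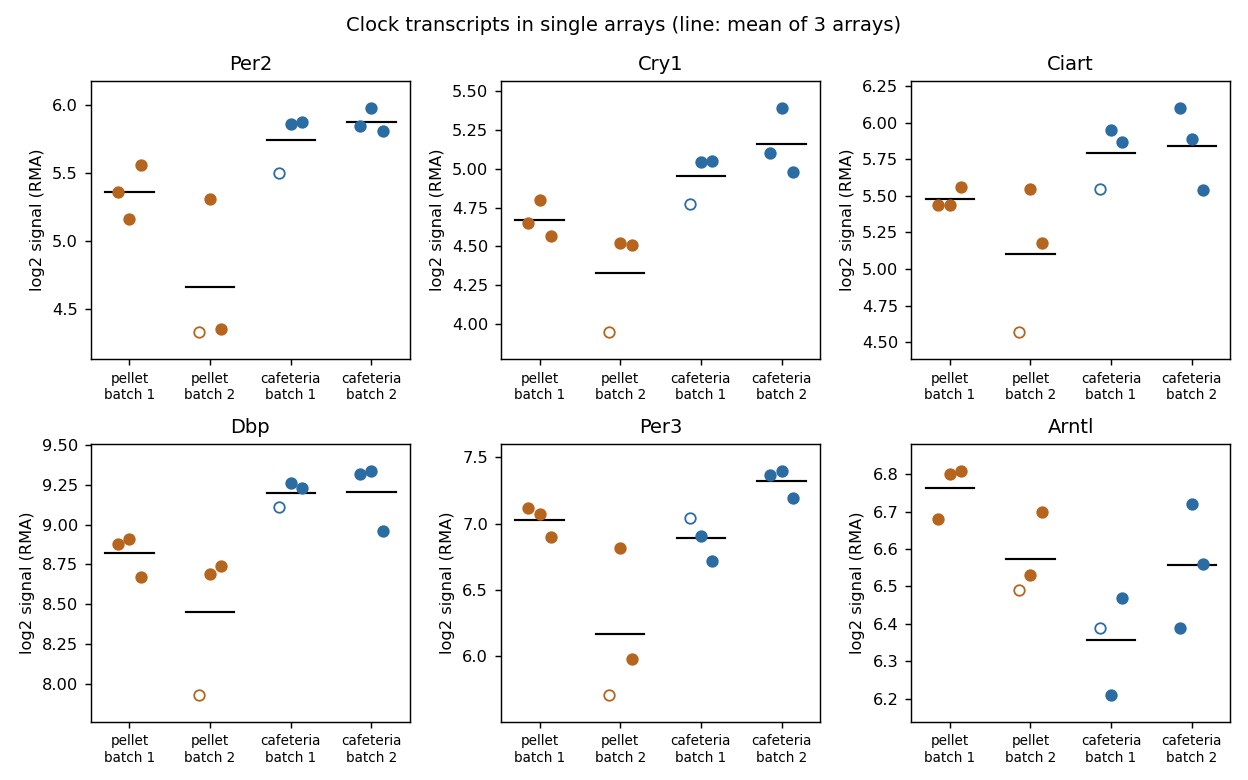
Log2 level (RMA) of 6 clock genes in each array, by diet and labelled batch, with pellet arrays in brown, cafeteria arrays in blue, open circles for pellet batch 2 replicate 1 and cafeteria batch 1 replicate 1, and a line at the mean of 3. Per2, Cry1, Ciart and Dbp are lower in both pellet batches than in both cafeteria batches, Per3 is low in pellet batch 2, and Arntl is highest in pellet batch 1.

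The promoters of 3 of these 4 clock genes, those with an entry in the table used, are shown because the activator of the clock is known to act through E-boxes. Each sequence holds the 250 bases before the annotated start, 5′ to 3′ on the strand of the gene, from RefSeq (GRCm38.p6), in the order Cry1 (chr10:85185055-85185304, minus strand), Ciart (chr3:95882229-95882478, minus strand) and Dbp (chr7:45704997-45705246, plus strand). Capitals mark the E-box CACGTG, which reads the same on both strands.
Cry1: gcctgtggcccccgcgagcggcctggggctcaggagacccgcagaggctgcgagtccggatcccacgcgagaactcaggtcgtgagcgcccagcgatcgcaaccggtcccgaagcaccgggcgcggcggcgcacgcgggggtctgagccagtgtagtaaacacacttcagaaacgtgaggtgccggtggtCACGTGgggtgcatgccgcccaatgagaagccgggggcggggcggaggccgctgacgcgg
Ciart: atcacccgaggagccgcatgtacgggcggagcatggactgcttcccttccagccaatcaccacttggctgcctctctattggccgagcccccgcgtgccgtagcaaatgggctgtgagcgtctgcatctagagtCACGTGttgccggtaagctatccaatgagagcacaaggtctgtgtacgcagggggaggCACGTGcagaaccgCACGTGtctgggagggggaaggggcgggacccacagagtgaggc
Dbp: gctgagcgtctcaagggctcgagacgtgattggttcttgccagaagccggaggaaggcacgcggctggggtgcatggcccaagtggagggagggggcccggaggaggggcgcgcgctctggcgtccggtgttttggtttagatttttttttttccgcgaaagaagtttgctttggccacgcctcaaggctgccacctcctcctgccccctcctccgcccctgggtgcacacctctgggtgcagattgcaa
Ciart holds 3 such elements, which begin 116, 58 and 44 bases before the start, Cry1 holds 1, which begins 60 bases before it, and this window of Dbp holds none. Of all 32851 promoters of that length 6.02% hold at least 1 and 0.429% at least 2. Of the 18 clock genes on the lists that have an entry, 5 hold the element (Cry1, Ciart, Per1, Tef and Bhlhe41). Counted by gene in the same way, 6.86% of all 27025 genes with an entry hold it. Among the clock genes with the element, Per1 and Tef had differences of −0.12 and −0.23, and Bhlhe41 was not among the features tested.

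Outside the clock, the genes with the largest differences were mostly lower on pellets and came from several functions. Tcte1, known from testis and from the machinery of cilia, Inpp4a, a phosphatase of inositol lipids in the insulin and PI3 kinase pathway, Sfxn5, a transporter of the inner mitochondrial membrane, and Lyrm4, a factor in the assembly of iron-sulfur clusters, kept differences of −0.62 to −0.74 without the 2 arrays. Inpp4a was at 7.01, 7.19 and 7.31 (lowest, median and highest array) on pellets and at 7.33, 7.78 and 8.28 on the cafeteria diet. Its groups did not overlap, and the difference was −0.64 (SE 0.15; unadjusted p = 0.000291). Within batch 1 the difference was −0.94 (adjusted p = 0.0166 in limma) and within batch 2 the difference was −0.33 (adjusted p = 0.0587). A second, dimmer probe set of Inpp4a gave −0.11. Tcte1 was at 4.94, 5.27 and 5.76 on pellets and at 5.59, 6.14 and 6.47 on the cafeteria diet, with 4 of 6 pellet arrays below all cafeteria arrays. Its difference was −1.24 in batch 1 (adjusted p = 0.00771) and −0.17 in batch 2, and the batches themselves differed (adjusted p = 0.00216). Sfxn5 was at 5.96, 6.81 and 6.95 on pellets and at 6.91, 7.45 and 7.85 on the cafeteria diet. Its difference was −0.80 and −0.69 within the batches, but −0.88 (adjusted p = 0.0438) and −0.42 (adjusted p = 0.0929) without the 2 arrays. Lyrm4 had −0.66 and −0.74, and then −0.79 (adjusted p = 0.0411) and −0.55 (adjusted p = 0.0179). Inpp4a and Tcte1 had an adjusted p of 0.00957 and 0.00983 within batch 1, and of 0.14 and 0.253 within batch 2, without the 2 arrays. On the chimpanzee and fast food diets Inpp4a was at 7.29 ± 0.19 and 8.03 ± 0.34 (SD, n = 6), Tcte1 at 5.32 ± 0.16 and 5.99 ± 0.30, Sfxn5 at 6.85 ± 0.15 and 7.73 ± 0.42, and Lyrm4 at 7.25 ± 0.26 and 7.60 ± 0.20. The pellet means of these genes were 7.16, 5.36, 6.67 and 6.81, and the cafeteria means 7.80, 6.07, 7.42 and 7.51, so that the chimpanzee mean lay nearer to the pellet mean in the first 3 and nearer to the cafeteria mean in Lyrm4. These differences to the other diets were not tested.

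The other named genes that were lower on pellets had larger differences within batch 2 than within batch 1. Pnrc2, which links nuclear receptors and the decay of mRNA, had the largest difference among the genes that met the naming rule, −0.85 (SE 0.27), with −0.27 and −1.42 within batches 1 and 2. Pellet batch 2 replicate 1, at 4.52, lay far below the other 5 pellet arrays, and without the 2 arrays the difference was −0.51 (SE 0.13). Nipsnap2, a mitochondrial protein, had −0.77 (SE 0.21), with −0.39 and −1.15 within the batches. Ccdc6, a coiled-coil protein, had −0.64 (SE 0.15), with −0.40 and −0.87, and its groups did not overlap, with pellet arrays from 5.69 to 6.76 and cafeteria arrays from 6.80 to 7.19. Lrrc8a, the core subunit of the anion channel that responds to cell swelling, had −0.65 (SE 0.18), with −0.36 and −0.94.

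For Pan3, Lrrtm4, Lhfpl3 and Spred1 the difference within batch 1 was near 0. Pan3, a subunit of an enzyme that shortens poly(A) tails, had −0.63 (SE 0.22), with −0.10 and −1.16 within the batches. It was −0.36 without pellet batch 2 replicate 1 and −0.41 without the 2 arrays, and its other probe sets above the filter gave −0.41, 0.31 and −0.14. Lrrtm4, a synaptic adhesion protein, had −0.60 (SE 0.20), with −0.03 and −1.17, and −0.39 without pellet batch 2 replicate 1. Lhfpl3, used as a marker of oligodendrocyte precursors, had −0.58 (SE 0.20), with −0.01 and −1.15, and −0.35 without that array. Spred1, an inhibitor of Ras and MAP kinase signalling, had −0.63 (SE 0.20), with −0.12 and −1.15, and −0.42 without that array, and 5 of its 6 other probe sets above the filter were lower too, by 0.51 to 0.82 in size. Arglu1 and Luc7l, both linked to splicing, had −0.69 (SE 0.20), with −0.37 and −1.0, and −0.61 (SE 0.18), with −0.22 and −1.0. Other probe sets gave −0.17 for Arglu1 and 0.30, −0.35 and −0.22 for Luc7l. Pkp2, of the cell junctions called desmosomes, had −0.61 (SE 0.16), with −0.26 and −0.96, and its second probe set above the filter gave −0.04. Cux2, of upper layers of the cortex, had −0.54 (SE 0.18), with −0.28 and −0.80, while its 2 other probe sets gave 0 and 0.04.

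The genes that were higher on pellets had smaller differences. Btg2, an early response gene that restrains cell division, was at 5.61, 6.46 and 6.74 on pellets and at 5.13, 5.71 and 6.19 on the cafeteria diet, a difference of 0.62 (SE 0.22; unadjusted p = 0.00932), with 0.31 and 0.92 within the batches. Kirrel3, an adhesion protein of neurons, had 0.53 (SE 0.18) with 0.53 and 0.54 in the batches, although its second probe set above the filter gave −0.26. Tns1, a protein of focal adhesions, had 0.52 (SE 0.18), with 0.15 and 0.90 within the batches, but pellet batch 2 replicate 1, at 8.32, stood above the other 5, and the difference without the 2 arrays was 0.32. Vasp, which promotes actin growth, had 0.39 (SE 0.11), with 0.23 and 0.55, and Acta2, the actin of smooth muscle and thus of vessel walls, 0.44 (SE 0.16), with 0.20 and 0.68. Fancc, a DNA repair gene, was the one named gene higher on pellets with no overlap, from 5.47 to 5.87 against 5.15 to 5.45, with a difference of 0.30 (SE 0.09), 0.28 and 0.31 within the batches and 0.20 without the 2 arrays. Sphk2, which makes sphingosine phosphate, had 0.36, with 0.06 and 0.66 within the batches, and a second probe set −0.22. Mms19, of cytosolic iron-sulfur assembly, had 0.33, Nupr1, a stress response factor, 0.33, Gpr26, a receptor of the brain, 0.29, and 3 genes known only by clone names, 9530057J20Rik, 4933402C06Rik and 9530077C05Rik, had 0.33, 0.32 and 0.31. Within batches 1 and 2 these were 0.20 and 0.47 for Mms19, 0.16 and 0.50 for Nupr1, 0.19 and 0.38 for Gpr26, 0.27 and 0.40 for 9530057J20Rik, 0.22 and 0.43 for 4933402C06Rik and 0.34 and 0.27 for 9530077C05Rik, and 9530077C05Rik had 0.20 without the 2 arrays. Further probe sets above the filter gave smaller values for several of these genes. They were 0.14 for Btg2, 0.11 and 0.29 for Tns1, and 0.06 and 0.22 for Fancc. For Nupr1 the value was 0.13, and for Mms19 and 9530077C05Rik it was 0. Over all named genes, 22 of 32 further probe sets of 19 genes had the same sign as the one used.

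**Figure D3:**
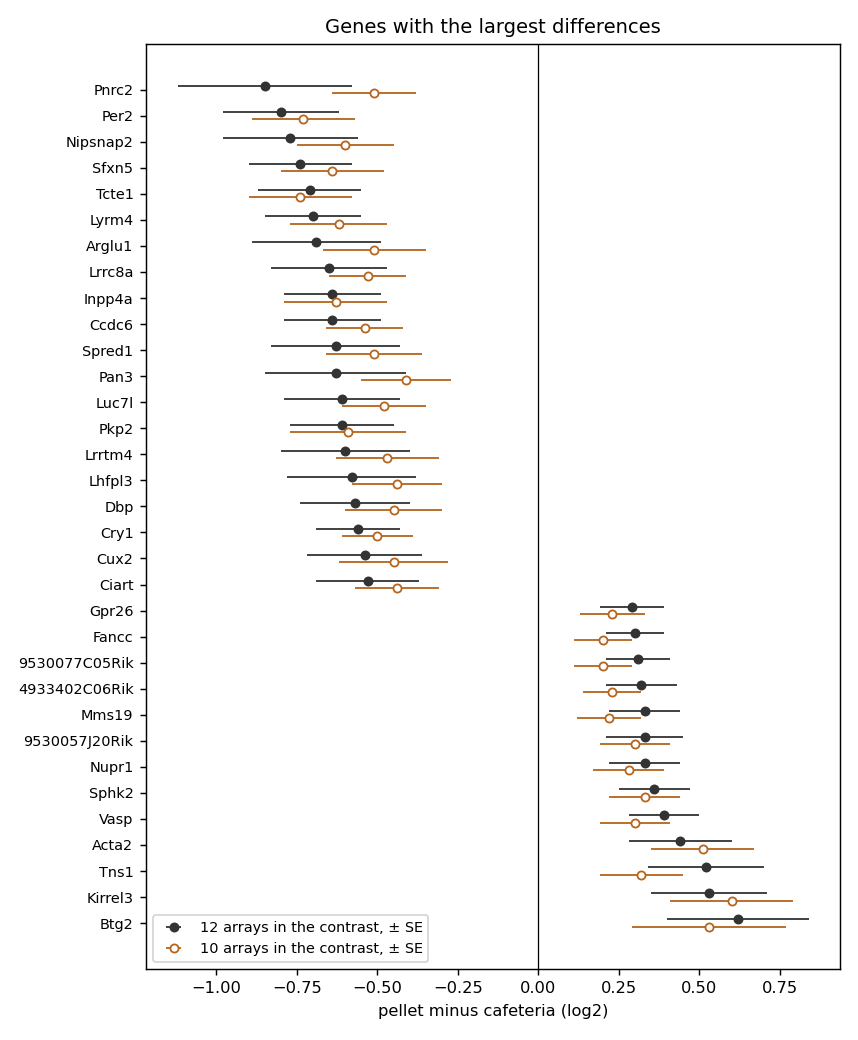
Pellet minus cafeteria difference (log2) of the 33 named genes with its standard error, with all 12 arrays of the diets (filled) and without pellet batch 2 replicate 1 and cafeteria batch 1 replicate 1 (open). Each gene keeps its sign, Pnrc2 moves from −0.85 to −0.51, and Inpp4a stays near −0.64. The genes were chosen by their differences in these same arrays, so that a kept sign is no separate evidence.

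Genes that answer to glucocorticoids were the second list that leaned the same way in both batches. Of 15 measured 13 were lower on pellets, with a median of −0.22, −0.09 within batch 1 and −0.53 within batch 2, and 5 had an unadjusted p under 0.05, against 4.3% of all features. Without the 2 arrays 13 of 15 were lower, the median was −0.19 and 5 had such a p, against 2.64%. Among all features 68.8% were lower with all arrays, and 8688 of 13839 without the 2. Quantile normalization left 10 of 15 lower, with a median of −0.14, and array weights 12 of 15, with −0.15. The 5 genes, named after their values were seen, are Tsc22d3, Sgk1, Zbtb16, Fkbp5 and Sult1a1. Tsc22d3, an anti-inflammatory factor and the lowest of the list, lay at 5.59, 7.81 and 8.16 on pellets and at 7.73, 8.46 and 8.96 on the cafeteria diet. The ranges overlapped, and the difference of −0.88 (SE 0.33) became −0.55 (SE 0.19) without the 2 arrays, with 0.02 and −1.78 within the batches. Sgk1, a kinase that regulates ion transport, lay at 5.91, 7.26 and 7.49 on pellets and at 6.80, 7.81 and 8.65 on the cafeteria diet. Here the lowest cafeteria array was again batch 1 replicate 1, and the difference was −0.79 (SE 0.30), or −0.75 (SE 0.25) without the 2 arrays, with −0.13 and −1.44 within the batches. Fkbp5, which dampens the receptor, had −0.41 (SE 0.17), Zbtb16, a zinc finger factor, −0.49 (SE 0.20), and Sult1a1, a sulfotransferase, −0.45 (SE 0.19). The receptor gene Nr3c1 had −0.10 (SE 0.22), with 0.52 and −0.73 in the batches, and Angptl4, the highest of the list, 0.29 (SE 0.17). None of these passed over all features (adjusted p = 0.593 or above in limma).

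For the other 17 pathway lists the median changed sign between the batches. Of the 19 pathway lists 18 had a median below 0 with batch as a term, 16 had a median above 0 within batch 1 and below 0 within batch 2, and 2, the clock repressors and the glucocorticoid genes, lay below 0 in both. The median of all features made the same turn, from 0.14 to −0.39. Interferon response genes ran the other way, from −0.05 to 0.08. Within batch 1, 5 of 9 clock repressors and 10 of 15 glucocorticoid genes were lower, against 29.5% of all features. Without the 2 arrays 3 pathway lists lay below 0 in both batches. These were the clock repressors (−0.04 and −0.53), the glucocorticoid genes (−0.23 and −0.34) and the clock activator limb and output factors (−0.01 and −0.25). The counts of lower genes that follow stand beside 68.8% of all features, or 8688 of 13839 without the 2 arrays. All 31 genes of oxidative phosphorylation were lower, with a median of −0.15, but this was 0.42 within batch 1 and −0.74 within batch 2, 0 had an unadjusted p under 0.05, and 20 of 31 were lower without the 2 arrays, 10 of 31 after quantile normalization and 0 with array weights. Within that list Uqcrc2, of complex III, was lowest with −0.26 and Ndufb3, of complex I, highest with −0.03. All 21 genes of glycolysis were lower too, with a median of −0.20 (0.46 and −0.89), and 17 without the 2 arrays. GABA-A receptor subunits had a median of −0.39 (0.21 and −0.96), 9 of 10 lower, from Gabrg1 with −0.75 (SE 0.31) to Gabrg3 with 0.14, but 4 of 10 with array weights. Of 20 genes of insulin, IGF1 and FOXO signalling 17 were lower, with a median of −0.17 (0.20 and −0.51), from Inpp4a with −0.64 to Inpp5d with 0.39, and the median was 0.12 with array weights. Foxo3 and Igf1, the other 2 with an unadjusted p under 0.05, had −0.39 (SE 0.14) and −0.26 (SE 0.11). The early response genes of active neurons had a median of 0.00, from Fosl2 with −0.54 to Btg2 with 0.62. Cholesterol synthesis had −0.14 with all arrays and 0.07 without the 2, and fatty acid synthesis −0.23 and −0.03. Of the remaining lists, glutathione and antioxidant enzymes had 22 of 23 lower with a median of −0.16 and the lowest value in Gpx3, a secreted peroxidase, with −0.67, and heat shock proteins 21 of 23 lower with −0.21 and the lowest in Hspa5, a chaperone of the endoplasmic reticulum, with −0.45. Ribosomal proteins had −0.17, glutamate receptors −0.17, fatty acid oxidation −0.17, the amino acid response −0.10, feeding neuropeptides −0.20, serotonin receptors −0.15 with Htr1b lowest at −0.70, and the interferon response −0.02. Every median of these 9 lists lay between −0.08 and 0.03 when the 2 arrays were left out.

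Of the 19 marker lists 14 also had a median above 0 within batch 1 and below 0 within batch 2, while those of the hypothalamus, the cerebellum and the olfactory bulb lay below 0 in both, where all features had 0.14 and −0.39. With batch as a term 68.8% of all features were lower, and 8688 of 13839 without the 2 arrays. All 16 markers of neurons were lower, with a median of −0.16, which was 0.46 within batch 1 and −0.83 within batch 2, and 11 of 16 were lower without the 2 arrays, 6 after quantile normalization and 0 with array weights. In whole tissue, fewer cells of a type and less RNA per cell cannot be told apart. Astrocyte markers had −0.19 (0.42 and −0.92) and myelin markers −0.21 (0.34 and −0.85). Oligodendrocyte precursor markers had −0.30, choroid plexus markers −0.24 with all 8 lower, microglia markers −0.14, endothelial markers −0.03 and ependyma markers 0.05 (−0.08 and 0.40). Among markers of brain regions, those of the cortex, hippocampus and thalamus each had −0.16 and those of the striatum −0.13. Cerebellum markers had −0.30 (−0.38 and −0.10), but −0.41 and 0.49 within the batches without the 2 arrays, so that 2 marker lists were then below 0 in both, and olfactory bulb markers −0.20 (−0.04 and −0.30), with Tshz1, a factor of bulb interneurons, lowest at −0.82. Markers of the hypothalamus, all 10 lower, had −0.29 (−0.23 and −0.20), with Pomc, which the pituitary also makes, the lowest at −0.74, and 9 of 10 were lower without the 2 arrays. The pituitary list had −0.44, with −2.13 and 1.24 within the batches and −0.12 and 0.19 without the 2 arrays. The part of these markers, of 18S and of the 2 arrays in single genes was not tested beyond the values given.

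**Figure D4:**
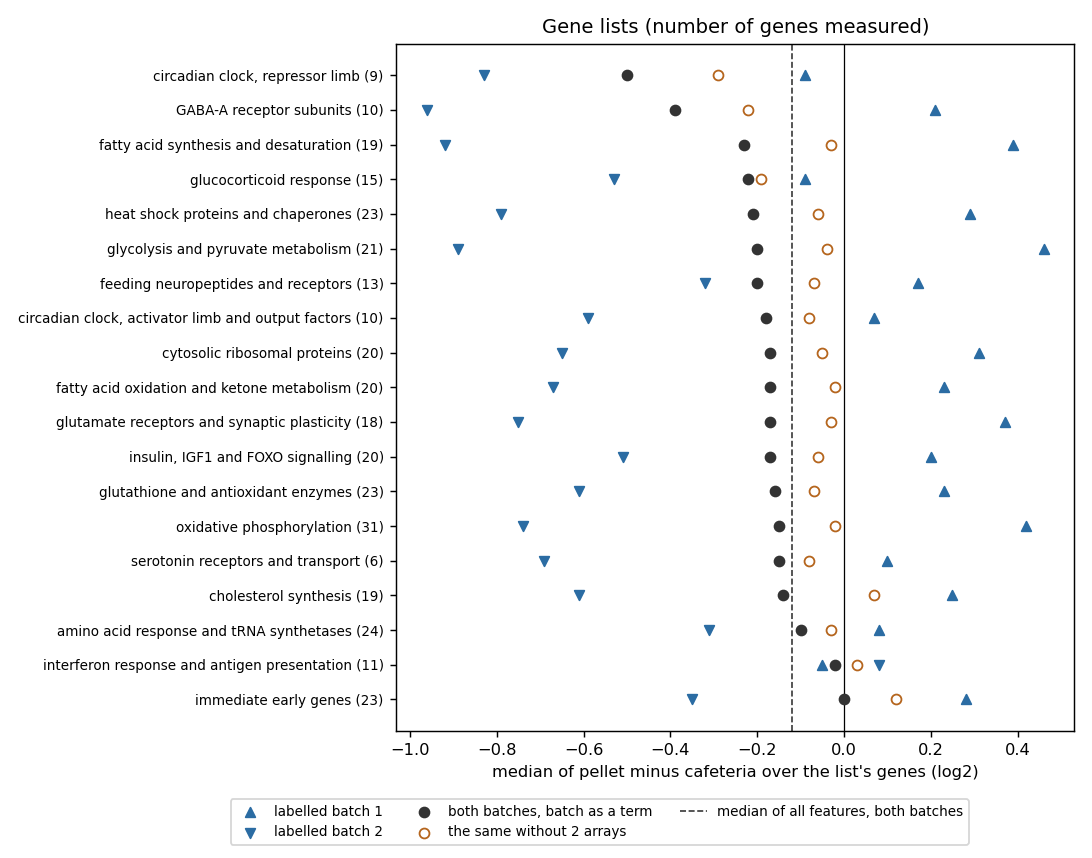
Median pellet minus cafeteria difference (log2) over the measured genes of each pathway list, within labelled batch 1 (triangles up), within batch 2 (triangles down), with batch as a term (filled circles) and the same without 2 arrays (open circles), with a dashed line at the median of all features, −0.12. The clock repressors and the glucocorticoid list lie below 0 in both batches, and oxidative phosphorylation lies at 0.42 and −0.74.

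The tests within batches gave counts that were far apart. Within labelled batch 1, 11 of 13839 features passed (0.0795%), 7 higher and 4 lower on pellets, and within batch 2 8561 passed (61.9%), of which 6836 were lower. These counts, and every adjusted p given within a batch, rest on a spread shared by the arrays of all diets. With the spread taken only from the arrays of that batch and pair, the order was reversed. More features then passed within batch 1 than within batch 2, as given in the closing section. The difference between the batches passed in 8313 features (60.1%). Over all features 84.5% had opposite signs in the batches, and of the 8 features that passed in both, 0 did so in the same direction. Without the 2 arrays 95 (0.686%) and 5132 (37.1%) passed within the batches, and the difference between batches in 5175 (37.4%). The 4 features lower in batch 1 were Tcte1, Inpp4a, Klf13, a Kruppel-like zinc finger factor named after its values were seen, and 1 probe set without a gene. Klf13 had −0.41 (SE 0.10), −0.64 in batch 1 (adjusted p = 0.0444) and −0.18 in batch 2, and its groups did not overlap. Within batch 2 Per2, Cry1, Dbp and Ciart passed (adjusted p = 0.000572, 0.00101, 0.00916 and 0.00603), as did 61.9% of all features. Leaving out 1 array took the count within batch 1 from 11 to between 0 and 5, with 0 left without cafeteria batch 1 replicate 2 or without pellet batch 1 replicate 1. In the model of diet by batch cells without the 2 arrays 5 features passed over both batches, all lower on pellets at an adjusted p of 0.0473, and these were Per2 (−0.78), Tcte1 (−0.74), Inpp4a (−0.66), Lyrm4 (−0.67) and Tmem250-ps (−0.67).

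**Figure D5:**
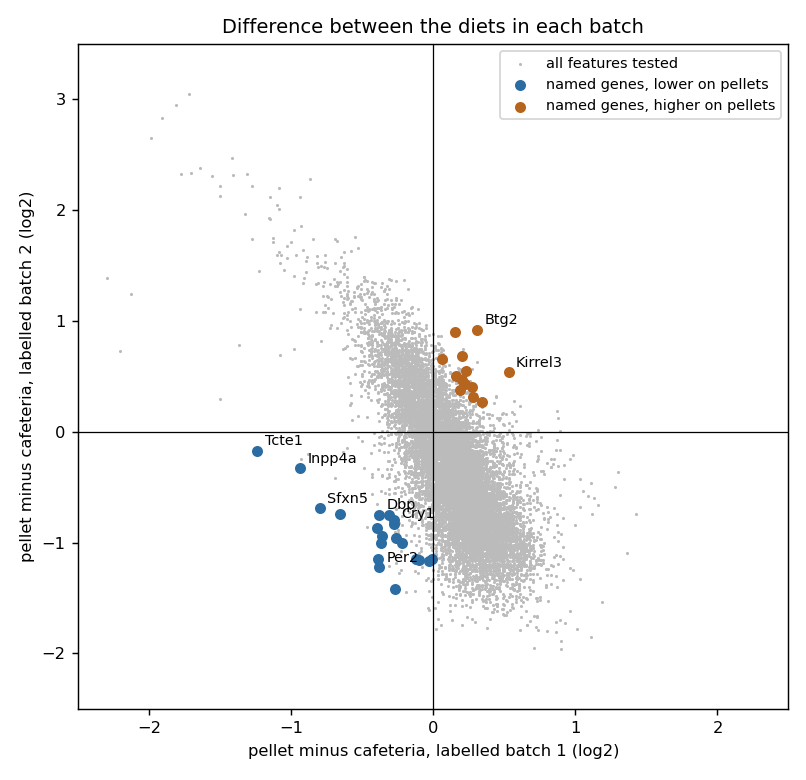
Pellet minus cafeteria difference (log2) within labelled batch 1 (x axis) against that within labelled batch 2 (y axis) for all tested features (grey), with the named genes lower on pellets in blue and those higher in brown (1 feature lies outside the axes). The grey points run from upper left to lower right, and the named genes lie in the other quadrants, as the rule that chose them requires.

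Since the pellet batches ran against the others in 18S, cells of like 18S signal were also set against each other, a choice made after the data were seen. Labelled batch 1 of the pellet diet differed from labelled batch 2 of the cafeteria diet in 0 features in limma, with 244 at an unadjusted p under 0.05 and a median of −0.01. Labelled batch 2 of the pellet diet differed from labelled batch 1 of the cafeteria diet in 10 features, 9 of them lower, with 4526 at an unadjusted p under 0.05 and a median of all features of −0.24. These included Per2 (−1.08), Inpp4a (−1.02), Sfxn5 (−1.16), Lyrm4 (−1.05), Nipsnap2 (−1.32) and Klf13 (−0.64), and the one higher was Tbx19, a factor of the pituitary, with 1.12. With the 2 arrays left out 5 features passed in that pair, with 1380 at an unadjusted p under 0.05 and a median of −0.12, Inpp4a and Nipsnap2 among them, and Per2 had −1.03 (adjusted p = 0.11). In the first of these pairs Per2 had −0.52, Cry1 −0.49, Ciart −0.37, Dbp −0.39 and Inpp4a −0.25. The part of batch in this pattern was not tested.

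The test of diet and batch that the methods describe was run on the 2 diets alone. After 11943 of 21996 probe sets with an interaction were removed, 72 of 7997 genes (0.9%) had a p under 0.01 for diet, and 0 passed after Benjamini-Hochberg adjustment. When the 2 arrays were left out these were 149 of 8807 genes (1.69%) and 0. The Tukey test over the 4 diets gave 31 of 7664 genes (0.404%) for this pair.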

How the data were processed

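The authors computed log2 expression levels by robust multichip average (affy in R), which includes quantile normalization; its version is not given in the sources used here, and the values were used as deposited. Diet, batch and replicate number come from the sample titles. Of 45101 probe sets, 64 controls were set aside, 34945 had 1 gene, 932 several (left out) and 9160 none. Features with a mean under 4.07, the median, were left out, and the probe set with the highest mean was kept for each gene. Members and lists were chosen with earlier results of these data known.

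limma 3.58.1 in R 4.3.3 was fitted to all 24 arrays with diet and labelled batch, and to the cells of diet by batch for contrasts within batches, with Benjamini-Hochberg adjustment over all features. It was also run on simulated data with a batch shift shared by all diets. The pellet arrays do not share such a shift, so that run does not cover the batch pattern seen here. The 33 named genes are up to 15 in each direction with the largest difference among genes with an unadjusted p under 0.01. Both pellet batch means must also lie on the same side of both cafeteria batch means. List genes that meet the same conditions are added. The highest and lowest gene of a described list are also given, but do not count as named on that ground. Any other gene in the text was picked with its values in view. The 38 lists, 19 of pathways and 19 of markers, hold 660 genes, of which 79.7% were measured, and are given by counts and medians, with no test. Promoters come from RefSeq. Figures were drawn with matplotlib 3.10.9. Precision is limited by the number of arrays, and 1 array per mouse means that the spread is between animals. Alternatives are given in the closing section.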

Additional observations from a re-analysis of the deposited data

Results flagged for a closer look

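Single arrays stood far from the other 5 of their diet in 20 of 84 groups of 6 that were looked at. The measure was the ratio of the gap to the range. Of these cases 15 were pellet batch 2 replicate 1 and 5 cafeteria batch 1 replicate 1. Chance gives about 1 in 20 for a single group, but the count of 20 cannot be judged against that rate. The named genes were chosen by their differences in these same arrays, and Gh, Prl and Pomc with their values in view. The groups also share the same arrays, and each holds both labelled batches. Pellet batch 2 replicate 1 was lowest for Pnrc2 (0.789), Pan3 (0.788), Dbp (0.75), Lrrc8a (0.737), Arglu1 (0.693), Spred1 (0.675), Cry1 (0.66), Sfxn5 (0.658) and Luc7l (0.635), and highest for Tns1 (0.809), 9530077C05Rik (0.729) and 9530057J20Rik (0.677). It was also highest for the pituitary genes Prl (0.871) and Gh (0.694) and lowest in correlation to the other arrays (0.876). Cafeteria batch 1 replicate 1 was highest for Prl (0.976), Gh (0.948) and Pomc (0.754), and lowest for Per2 (0.634) and in correlation to the other arrays (0.812).

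The difference between the diets depended on the labelled batch in 8313 features in limma. Among the named genes 12 did so, with a difference of batch 2 minus batch 1 of −1.16 for Pnrc2, −1.14 for Lrrtm4, −1.14 for Lhfpl3, −1.06 for Pan3, −1.03 for Spred1, −0.83 for Per2, −0.78 for Luc7l, −0.69 for Pkp2, 0.61 for Inpp4a, 0.61 for Sphk2, 0.75 for Tns1 and 1.07 for Tcte1.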

How the results depend on the processing

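With batch as a term limma called 0 features for pellet minus cafeteria, and 0 passed under each alternative except those that follow, including without each of the 12 arrays in turn (0 to 0) and in the methods' tests. Array weights gave 1998 (1685 of them higher on pellets), and 77 (76 lower) in the model of diet by batch cells. That model without the 2 arrays gave 5, all lower, which were Per2, Tcte1, Inpp4a, Lyrm4 and Tmem250-ps. Pellet batch 2 against cafeteria batch 1 gave 10. The cause of these changes was not tested. The replicate block gave 0, with 598 at an unadjusted p under 0.05; arrays with the same number did not pair (3 of 12 correlated best with their own number). For pellet minus cafeteria within labelled batch 1, where 11 passed, leaving out 1 array gave 0 to 5 and the 6 arrays alone 2328. For pellet minus cafeteria within labelled batch 2, where 8561 passed, these were 4948 (without pellet batch 2 replicate 1) to 9744, and 0 with the 6 arrays alone, where 5683 had an unadjusted p under 0.05. The difference between batches passed in 5175 features without the 2 arrays. All 33 named genes kept their sign under every one of the 29 alternatives that gave a value. They were chosen by their differences in these same arrays, so that kept signs were likely beforehand and are no separate evidence. Array weights turned Per3 (0.09), Cry2 (0.08), Nr1d1 (−0.11), Nr1d2 (0.12), Bhlhe40 (0.07), Clock (0.05), Rora (0.54), Rorb (0.11), Tef (0.18), Csnk1d (−0.67) and Angptl4 (−0.02), and quantile normalization Per1 (0.05), Rora (0.06) and Csnk1e (0.05). Without the 2 arrays Rora turned (0.03). Without single arrays these genes crossed 0, with ranges of −0.28 to 0.07 for Rora, −0.25 to 0.04 for Rorb, −0.06 to 0.37 for Csnk1d and −0.10 to 0.13 for Nr1d1. Alternatives on cells, and batch tests without single arrays, were chosen after seeing the data.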
